A study of Mus musculus with 8 samples.

Results

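Among the 26640 array probes for RefSeq messenger RNAs, 156 probes of 153 genes were well above background on all 4 Hoxa9-eGFP arrays and on none of the 4 eGFP arrays. The array held probes for 20017 such genes among 55681 non-control probes. Well above background is a flag that the scanner software sets for each spot. Before 10 probes of 8 genes were left out by name (Iapp, Chrdl1, Nov, Gcg, Prl8a2, Pcsk5, Hoxd10 and Pln), 166 probes met the rule, which is 0.623% of messenger RNA probes. With the groups exchanged, 19 probes of 18 genes met it, or 0.0713%. Of the probes detected on no eGFP array 3.76% met the rule, and of those detected on no Hoxa9 array 0.612% met the opposite one. The probes were chosen by the flags of all 8 arrays, so their number, direction and size are given as a description, with no test.

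The cells were satellite cells, the stem cells of skeletal muscle, sorted from the hindlimb muscle of 3 to 4 month old C57BL/6J mice and cultured overnight. One group received lentiviral particles with eGFP cDNA, the other with Hoxa9 cDNA and eGFP cDNA. Cells positive for eGFP were sorted 5 days later, so every sample of both groups carried an integrated virus and passed the same sort. Each group had 4 samples, numbered 1 to 4 by experiment and hybridised to 1-colour arrays. The labels name neither the promoter that drove the cDNAs nor whether the 4 samples came from separate animals, so the spread between samples may be technical.

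Hoxa9 encodes a homeodomain protein that gives position along the trunk and limbs of the embryo. Hox proteins bind short AT-rich sites, often with Pbx and Meis partners, and are known mainly for setting which genes of a region or lineage are transcribed. Satellite cells lie quiet along muscle fibres, are marked by Pax7, and after activation divide and turn on Myod1. In these cultures the comparison asks which transcripts differ when Hoxa9 is overexpressed.

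Levels below are log2 processed signals after subtraction of the 75th percentile of the non-control probes of that array, so 0 is that percentile. The share of non-control spots well above background was 69.6% to 73.0% on the eGFP arrays and 72.2% to 77.5% on the Hoxa9 arrays. With 4 arrays a group, the precision of the values is limited by that number. All 7 satellite and myoblast markers were well above background on all 8 arrays, and Pax7, Myf5, Vcam1 and Itga7 were lower with Hoxa9 (limma, Benjamini-Hochberg over 27110 genes, adjusted p 0.00406, 0.0262, 0.00011 and 0.0176). The brighter Hoxa9 probe had a mean of -0.49 ± 0.44 (SD, n = 4) in eGFP and 5.49 ± 0.21 in Hoxa9 samples. The other Hoxa9 probe had the opposite order, with means of -1.71 ± 0.18 in eGFP and -3.46 ± 0.09 in Hoxa9 samples.

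The name of the set holds for the probe, not always for the gene. For 79 of the 153 genes the array carried another probe, and in 47 of them another probe was well above background on all 4 eGFP arrays. In 14 more genes another probe was detected on 1 to 3 eGFP arrays. Only 18 of the 79 had no other probe detected on any eGFP array, and the remaining 74 genes rest on the probes chosen here. The genes are therefore described below as detected by these probes only with Hoxa9. In bulk samples a rise in the share of cells with a transcript and a rise per cell cannot be told apart.

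The 60-base probes of the 6 genes with the highest lower bounds show what was hybridised, each written 5′ to 3′ with its mm9 position.
Elapor2, chr5:9480377-9480436, plus strand: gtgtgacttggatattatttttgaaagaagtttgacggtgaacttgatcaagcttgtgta
Fgf12, chr16:28189673-28373012, minus strand, a span longer than the probe as the files give it: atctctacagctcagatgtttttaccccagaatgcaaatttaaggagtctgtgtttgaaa
Aox3, chr1:58245203-58245262, plus strand: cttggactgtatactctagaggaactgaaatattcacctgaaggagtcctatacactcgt
Ttyh1, chr7:4087717-4087776, plus strand: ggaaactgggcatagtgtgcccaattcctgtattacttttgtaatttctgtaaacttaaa
Serpina3g, chr12:105480045-105480104, plus strand: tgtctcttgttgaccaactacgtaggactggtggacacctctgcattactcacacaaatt
Tspan8, chr10:115286563-115286622, plus strand: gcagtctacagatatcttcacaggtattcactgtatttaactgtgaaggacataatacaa

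Most of the probes were dim even with Hoxa9. Their Hoxa9 means ran from -5.40 to -0.36 with a median of -4.54, and none lay above the 75th percentile. Of the 156 probes 10 had a mean over -2, 37 lay from -4 to -2 and 109 at -4 or less. Ranked among the messenger RNA probes detected on all Hoxa9 arrays, the median probe stood at percentile 2.98, and the brightest, that of Elapor2, at 44.5. Brightness also depends on how well a probe binds, so these ranks order probes and not transcripts.

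**Figure D1:**
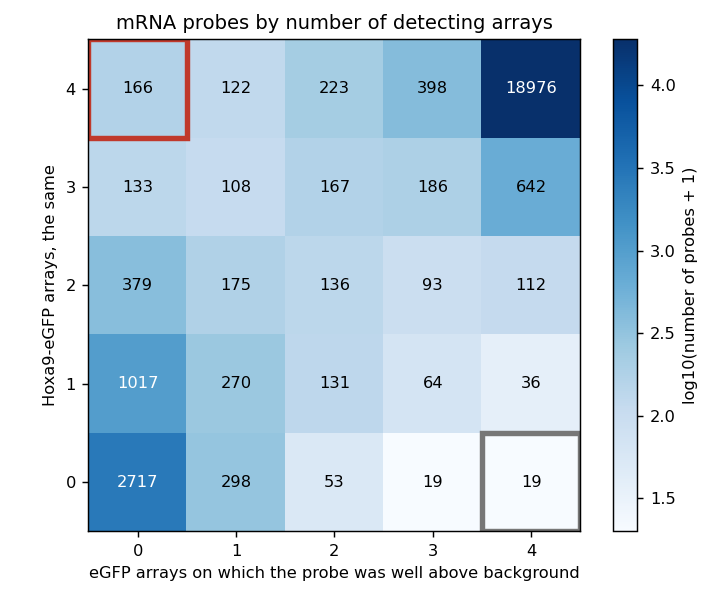
Number of messenger RNA probes by how many Hoxa9-eGFP arrays (vertical axis) and how many eGFP arrays (horizontal axis) had the probe well above background, with shading by log10 of the number plus 1. The red frame holds the 166 probes detected on all Hoxa9 and no eGFP arrays, before 10 were left out by name, and the grey frame the 19 of the opposite pattern.

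The Hoxa9 mean exceeded the eGFP mean by 0.41 to 6.75 on the log2 scale, with a median of 2.45, beside a median of -0.04 over all messenger RNA probes. The eGFP side of these differences is only a bound. On eGFP replicates 3 and 4 the scanner values end at one lowest value (-7.79 and -7.68) that 6941 and 7371 probes share, and 38 and 39 of the 156 probes sat on it. A lower bound was therefore used. It sets the Hoxa9 mean against the lowest signal that was well above background on each eGFP array, or against the probe's eGFP signal where that was higher. Some probes brighter than that limit were not well above background, so the bound could be too large. Where the eGFP signal exceeded the limit on every eGFP array, as for Mup19 and Tfap2e, the bound is just the ratio of the group means. The words at least therefore refer to means and do not cover the spread between samples. By this bound 137 probes were at least 2-fold higher, 57 at least 4-fold, 17 at least 10-fold and 6 at least 30-fold. With the 95th percentile of the signals not well above background as the limit, the numbers were 78, 26, 12 and 2. With normexp background correction, whose offset compresses dim signals, 16 probes were at least 2-fold higher and the median difference was 0.39.

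**Figure D2:**
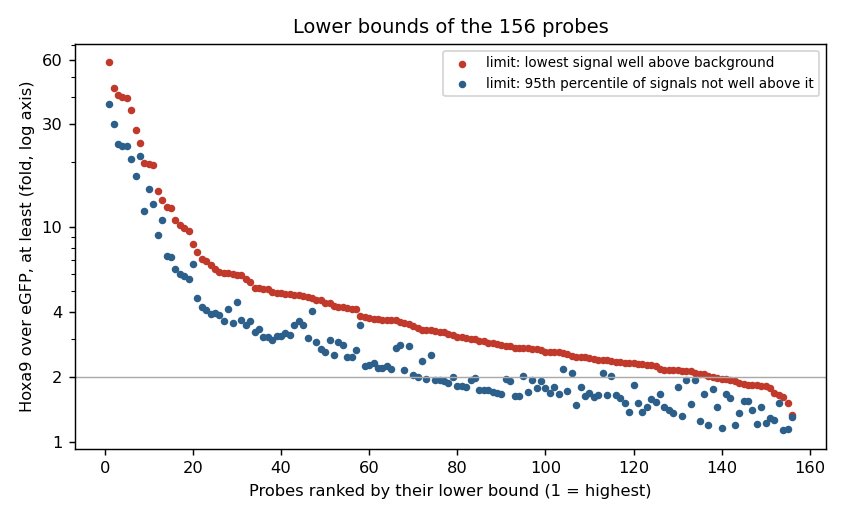
Lower bound of the Hoxa9 over eGFP ratio (fold, log axis) for each of the 156 probes, ranked. Red points use the lowest signal well above background on each eGFP array as the limit and run from 58.2 down to 1.33. Blue points use the 95th percentile of signals not well above background.

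The ranges of the 4 eGFP and 4 Hoxa9 values did not overlap for 144 probes and overlapped for 12. Over all messenger RNA probes, 11.6% had groups that did not overlap with Hoxa9 higher. Absence of the flag did not mean absence of signal. By the milder flag of the same software, a signal positive and significant against background, 66 of the 156 probes passed on all 4 eGFP arrays and 16 on none. Of the 17 probes at least 10-fold higher, 3 passed on all 4 eGFP arrays and 3 on none. Among the 19 under 2-fold, 16 passed on all 4 eGFP arrays and 7 had overlapping groups.

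Elapor2, whose product is an endosomal and lysosomal membrane protein, had the highest bound. Its signal was -6.43, -6.06, -7.43 and -7.65 in the eGFP samples and -0.68, -0.58, -0.35 and 0.16 in the Hoxa9 samples, each in the order of replicates 1 to 4 used throughout, at least 58.2-fold higher. The lowest Hoxa9 array stood 5.38 log2 units over the highest eGFP array. Its other probe, well above background on 2 eGFP arrays, had a mean of -5.07 ± 0.37 (SD, n = 4) in eGFP and 1.41 ± 0.58 in Hoxa9 samples.

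Fgf12, a fibroblast growth factor homologue that stays inside the cell and binds voltage-gated sodium channels, was at least 44.1-fold higher. It measured -7.19, -7.44, -5.60 and -6.17 in eGFP and -0.58, -1.0, -0.65 and -0.39 in Hoxa9 samples. Its second probe was detected on 2 eGFP arrays and differed by 5.52. Aox3, an aldehyde oxidase, was -8.19, -7.63, -7.39 and -7.68 in eGFP and -1.21, -1.23, -1.13 and -0.31 in Hoxa9 samples, at least 41.1-fold higher. Aox3 had the widest gap between the groups of these genes, and Hoxa9 replicate 4 stood above the others, which lay close together. Ttyh1, a membrane protein of the tweety family, was -7.82, -7.29, -7.79 and -7.68 in eGFP and -0.97, -1.21, -1.15 and -0.68 in Hoxa9 samples, at least 40.1-fold higher. For Ttyh1 the gene itself was not silent in eGFP samples. Its 2 other probes were detected on all 8 arrays and differed by 5.67 and 5.98.

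Serpina3g, a serine protease inhibitor of immune cells, was -7.82, -6.65, -7.79 and -7.68 in eGFP and -2.67, -1.80, 0.56 and -0.14 in Hoxa9 samples, at least 39.9-fold higher. The Hoxa9 samples of Serpina3g spread widely (SD 1.48). Tspan8, a tetraspanin of the cell surface, was -7.99, -7.58, -7.79 and -7.68 in eGFP and -0.66, -0.29, -1.61 and -2.28 in Hoxa9 samples, at least 34.8-fold higher. Here Hoxa9 replicates 3 and 4 were the lower ones, against the order seen for Serpina3g.

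**Figure D3:**
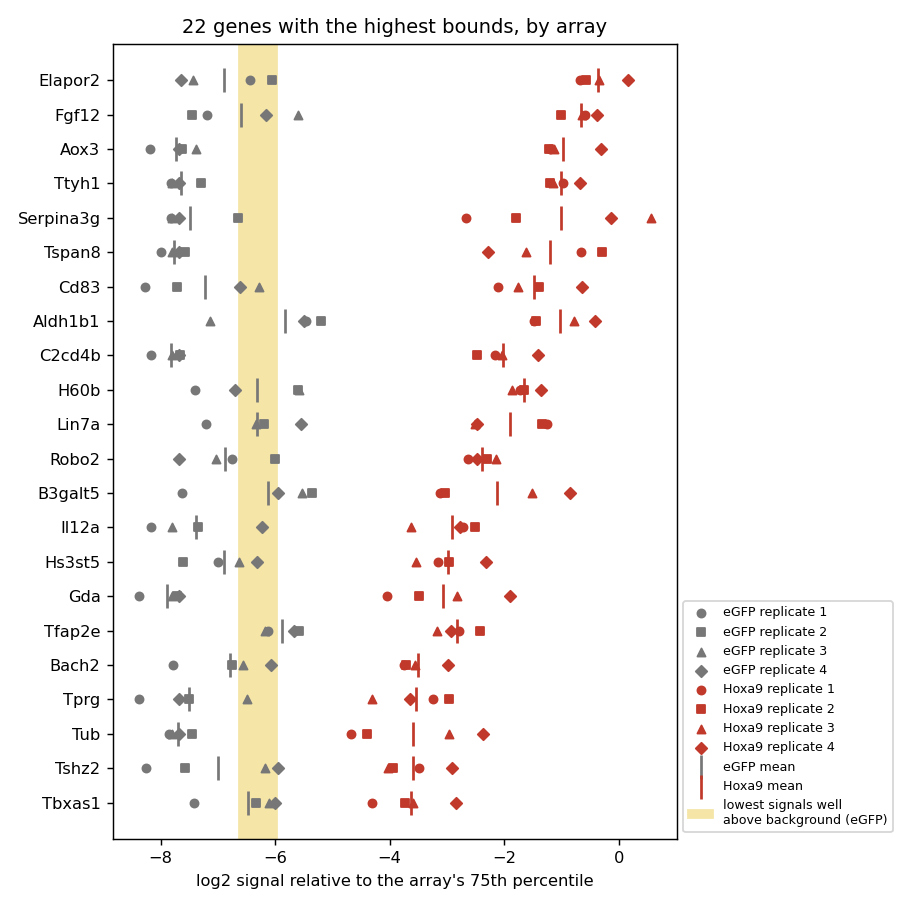
Log2 signal relative to the array's 75th percentile on each of the 8 arrays for 22 genes with the highest lower bounds. Grey symbols are eGFP and red symbols Hoxa9 samples, bars mark means, and the shaded band spans the lowest signals well above background on the 4 eGFP arrays. Every gene shown has all Hoxa9 samples to the right of all eGFP samples.

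By function, assigned by hand from known roles after the values were seen, the largest named groups were immune and interferon genes (14), neuronal genes (14), matrix, adhesion and cytoskeleton genes (14) and nuclear factors (13). Roles were not assigned to the other genes of the array, so these numbers have no share to be read against. Another 41 genes had no assigned group. The median bound was 5.38-fold in the immune group, 3.44-fold in the neuronal, 3.19-fold in the matrix and 3.12-fold in the nuclear factor group, beside 3.15-fold over all 156 probes. Oxidoreductases and other metabolic enzymes (7 genes) had a median of 6.17-fold, and 3 genes of glycan synthesis one of 10.1-fold. The 3 sperm genes had the lowest, 1.83-fold.

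**Figure D4:**
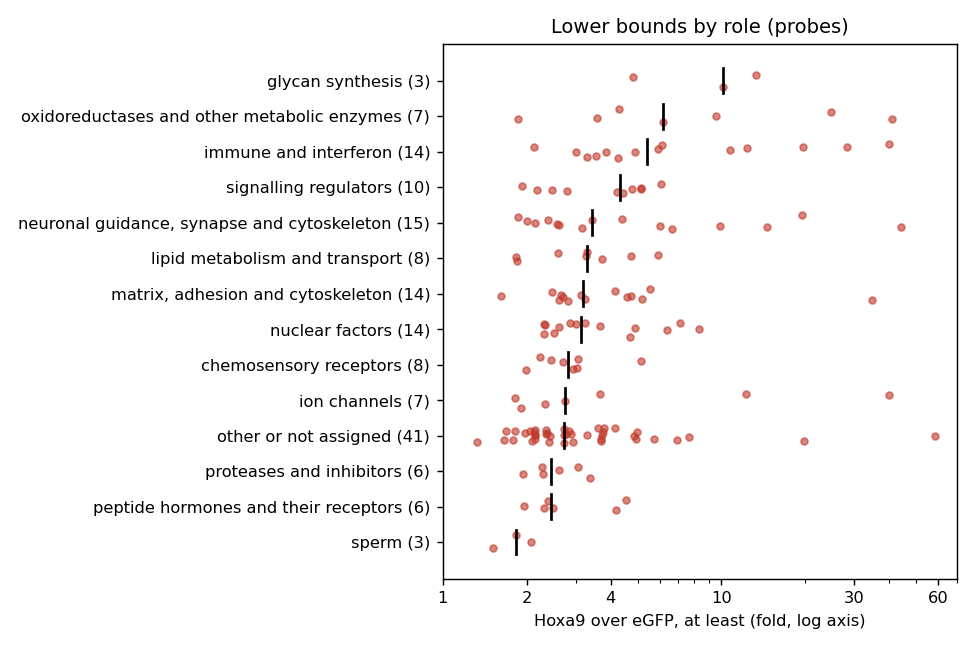
Lower bound of the Hoxa9 over eGFP ratio (fold, log axis) of each probe, by role, with the number of probes in parentheses and a black bar at the median. The immune group reaches 39.9-fold and the neuronal group 44.1-fold, while the sperm genes reach 2.07-fold.

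In the immune and interferon group all 14 genes were at least 2-fold higher. Cd83, a surface protein of mature dendritic and activated immune cells, had eGFP values of -8.28, -7.72, -6.28 and -6.61 and Hoxa9 values of -2.11, -1.39, -1.75 and -0.63, at least 28.2-fold higher. H60b, a stress ligand of the NKG2D receptor of natural killer cells, measured -7.41, -5.60, -5.58 and -6.70 against -1.73, -1.66, -1.87 and -1.36, at least 19.5-fold higher. The 4 Hoxa9 values of H60b lay close together (SD 0.21). Il12a, a subunit of interleukin 12, went from a mean of -7.38 ± 0.84 (SD, n = 4) to -2.90 ± 0.50. The Hoxa9 samples of Il12a ran from -3.63 to -2.50. Some of the group were named after their values were seen. The interferon-inducible giant GTPase Gvin1 was at least 5.93-fold higher and the guanylate-binding protein Gbp7 at least 3.54-fold. Gbp7 had Hoxa9 values of -4.82, -4.59, -4.76 and -2.15, so replicate 4 stood far above the others. The other Gbp7 probe was detected on no array and differed by -0.34. The viral RNA sensor Ddx58 was at least 3.29-fold higher. Another Gvin1 probe and another Ddx58 probe, both detected on all 8 arrays, differed by 0.69, with overlapping groups, and by 1.67. In the group as a whole the array medians were -4.36, -4.10, -3.61 and -2.75 in Hoxa9 replicates 1 to 4, and replicate 4 was the highest for 10 of the 14 genes.

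Blood cell markers lay in overlapping ranges in the groups. The summed linear signal of the 7 markers, in units of the 75th percentile, was 34.4 to 54.2 in eGFP and 34.5 to 47.7 in Hoxa9 samples. Ptprc, the marker of all white blood cells, was well above background on none of the eGFP and 2 of the Hoxa9 arrays. Cd68, Itgam, Csf1r and Cd3e were well above background on all 8 arrays and none of them passed the test (limma adjusted p 0.635, 0.939, 0.962 and 0.946).

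The neuronal group held receptors and scaffolds of axons and synapses. Lin7a, a scaffold protein of synapses and epithelial junctions, measured -7.21, -6.20, -6.33 and -5.54 in eGFP and -1.26, -1.34, -2.52 and -2.48 in Hoxa9 samples, at least 19.4-fold higher. The other Lin7a probe was detected on 1 Hoxa9 and no eGFP array, with a Hoxa9 mean of -5.85 and a difference of 1.77. Robo2, a receptor for the Slit guidance proteins, had 2 probes in the set. They share no 20-base stretch, and the brighter one is shown.
Robo2, chr16:73894653-73894712, minus strand: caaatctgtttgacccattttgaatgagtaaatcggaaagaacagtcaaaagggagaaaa
The brighter probe was at -6.76, -6.0, -7.04 and -7.68 in eGFP and -2.63, -2.31, -2.15 and -2.47 in Hoxa9 samples, at least 14.6-fold higher. The other was at least 9.89-fold higher, with Hoxa9 values of -3.26, -2.96, -2.56 and -3.32. Both probes put the 4 Hoxa9 samples close together (SD 0.21 and 0.34). Tub, a phosphoinositide-binding protein studied in neurons, was at least 6.65-fold higher, but its other probe, on which Hoxa9 samples spread widely (SD 2.22), differed by -1.49. Nefh, the heavy neurofilament subunit, and Kirrel3, an adhesion protein of synapses and of muscle cell fusion in flies, were at least 4.39-fold and 3.44-fold higher. The other Nefh probe was detected on 3 Hoxa9 and no eGFP arrays and differed by 1.14, with overlapping groups. The 2 other Kirrel3 probes were detected on all 4 eGFP arrays and differed by 0.38 and 0.19, with overlapping groups. The neural marker list did not overlap between the groups either. Its summed signal was 32.9 to 43.7 in eGFP and 61.3 to 81.5 in Hoxa9 samples, of which Ncam1, also a myoblast protein, was higher (difference 1.08, limma adjusted p 0.00298) and Tubb3 lower (-1.61, adjusted p 0.00808). The Schwann cell marker Sox10 was detected on all 8 arrays and was not called. The part of such cells in these results was not tested.

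Among ion channels P2rx2, an ATP-gated channel, measured -8.02, -7.55, -7.79 and -7.68 in eGFP and -5.12, -4.87, -4.25 and -3.59 in Hoxa9 samples, at least 3.66-fold higher, and Trpc4, a calcium-permeable channel, at least 1.82-fold. The array's other P2rx2 probe was detected on all 8 arrays and differed by 2.74. Of the other channels of this subfamily P2rx4, P2rx5 and P2rx7 were higher with Hoxa9 by 0.90 ± 0.15 (SE), 1.47 ± 0.23 and 1.62 ± 0.16 on the log2 scale (limma adjusted p 0.00483, 0.00375 and 0.00039). P2rx1, P2rx3 and P2rx6 were tested and not called.

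Among matrix, adhesion and cytoskeleton genes below Tspan8, the desmosomal cadherin Dsc2 was at least 5.54-fold, the intermediate filament protein Synm at least 5.19-fold and the microvillus actin bundler Vil1 at least 4.76-fold higher. Dsc2 had eGFP values of -6.05, -7.18, -7.71 and -6.81 and Hoxa9 values of -3.85, -4.18, -3.84 and -2.99. Vil1 had Hoxa9 values from -3.92 to -3.45 and eGFP values from -7.33 to -5.70. Synm had 4 other probes, all detected on all 8 arrays, with differences of 0.76 to 1.88. Ccdc80, a secreted matrix-binding protein, was at least 4.58-fold higher. Its second probe was detected on all 8 arrays, at -1.90 in eGFP and -0.06 in Hoxa9 samples. Lama3, a laminin chain of epithelial basement membranes, was at least 3.25-fold higher, with another probe on all 8 arrays that differed by 0.49 and had overlapping groups, and Nebl, a nebulin relative of the heart muscle Z-disc, at least 2.65-fold. In Nebl the eGFP values ran from -7.79 to -4.87 and nearly met the Hoxa9 values. Optc, an eye matrix proteoglycan, was at least 1.61-fold higher. The epithelial markers Epcam and Cdh1 were well above background on 1 and 1 of the Hoxa9 and on 1 and 0 of the eGFP arrays. The summed epithelial list, led by Krt18 and Krt8, was 108.6 to 180.3 in eGFP and 181.8 to 273.9 in Hoxa9 samples, so the ranges nearly met. Krt18 (difference 0.71, limma adjusted p 0.0645) and Krt8 (0.05, adjusted p 0.941) were not called. The part of epithelial cells in these results was not tested. Sums of the satellite and myoblast, fibroblast, smooth muscle and adipocyte lists also did not overlap between the groups, the last given below. The satellite and myoblast list was 200 to 278 in eGFP and 126 to 144 in Hoxa9 samples. The fibroblast and fibro-adipogenic list was 2.36 to 7.10 in eGFP and 9.75 to 25.1 in Hoxa9 samples. Of its 5 markers Ly6a was higher (difference 4.55, limma adjusted p 0.00056), Pdgfra, Dcn and Col1a1 were not called, and Dpt was well above background on no array. The smooth muscle and pericyte list was 64.6 to 112 in eGFP and 24.9 to 57.8 in Hoxa9 samples, with Acta2 lower (-1.33, adjusted p 0.0234) and its 3 other markers not called. The part of such cells in the matrix genes was not tested.

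Aox3 and Aox4 are neighbours in the aldehyde oxidase cluster on chromosome 1, with 79.6 kb between their probes. Aox4, named after its values were seen, measured -7.26, -7.18, -7.79 and -7.68 in eGFP and -4.30, -4.62, -4.14 and -3.87 in Hoxa9 samples, at least 4.28-fold higher. Its probe is at chr1:58324864-58324923, plus strand.
Aox4: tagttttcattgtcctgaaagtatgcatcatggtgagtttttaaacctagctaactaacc
On one side Aox1 was detected on all 8 arrays and higher with Hoxa9 by 1.08 ± 0.20 (SE, limma adjusted p 0.00834). On the other side Aox2 was well above background on none of the 8 arrays. Sgo2a, next to the cluster, had a mean of -0.77 in eGFP and -2.73 in Hoxa9 samples.

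Other metabolic enzymes included Aldh1b1, a mitochondrial aldehyde dehydrogenase, at -5.46, -5.21, -7.13 and -5.50 in eGFP and -1.48, -1.45, -0.78 and -0.41 in Hoxa9 samples, at least 24.6-fold higher. Its eGFP signals on 3 arrays exceeded the lowest signals that were well above background there. Of its relatives Aldh1a3 was higher by 1.61 ± 0.33 (SE, limma adjusted p 0.013, 0.00653 to 0.0569 over the alternatives), and Aldh1a1, Aldh1a2 and Aldh2 were not called. Gda, which deaminates guanine, was at least 9.59-fold higher, and Tbxas1, which makes thromboxane, at least 6.17-fold. The other Gda probe was detected on all 8 arrays and differed by 3.05. In all 7 genes of the metabolic group Hoxa9 replicate 4 was the highest Hoxa9 sample.

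For glycan synthesis, B3galt5, a galactosyltransferase, was at least 13.3-fold higher, with Hoxa9 values of -3.11, -3.04, -1.51 and -0.86 and eGFP values from -7.63 to -5.35. Hs3st5, which adds sulfate to heparan sulfate chains, was at least 10.1-fold higher, with Hoxa9 values of -3.15, -2.96, -3.53 and -2.31 and eGFP values from -7.61 to -6.31. Related enzymes did not all move with them. Hs3st4 and Hs3st6 were higher by 1.67 ± 0.33 (SE) and 0.71 ± 0.16 (limma adjusted p 0.011 and 0.0171, the latter 0.00817 to 0.052 over the alternatives), B3galt1 fell by 0.95 ± 0.19 (adjusted p 0.0106), and Hs3st1, B3galt2 and B3galt4 were not called.

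All 13 nuclear factor genes had Hoxa9 means of -2.83 or less. Tfap2e, an AP-2 family factor, measured -6.12, -5.58, -6.17 and -5.67 in eGFP and -2.79, -2.42, -3.18 and -2.93 in Hoxa9 samples, at least 8.33-fold higher. Bach2, a repressor that holds back lymphocyte differentiation, was at least 7.11-fold higher, and Tshz2, a teashirt zinc finger factor, at least 6.35-fold. Their other probes behaved differently in eGFP samples. The Bach2 one was detected on all 8 arrays and differed by 2.11, and the Tshz2 one was detected on 3 eGFP arrays and differed by 4.45. Foxp2, a forkhead repressor named after its values were seen, had 2 probes at least 3.24-fold and 3.01-fold higher and another probe that was detected on no array.

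Hormones and their receptors made up 6 genes. The hormone genes Iapp, Gcg and Prl8a2 and the prohormone convertase Pcsk5 met the rule too and were left out by name, so this number is no measure of the group. Grp, gastrin-releasing peptide, measured -7.66, -7.28, -7.79 and -7.68 in eGFP and -4.86, -4.93, -4.02 and -2.77 in Hoxa9 samples, at least 4.55-fold higher. Tacr1, the substance P receptor, was at least 4.17-fold higher, with Hoxa9 values of -4.75, -5.30, -4.11 and -2.92. In both genes replicate 4 was the highest. Prl6a1, a placental prolactin relative, was at least 1.95-fold higher, while its other probe, detected on all 8 arrays, differed by -0.35. The sum of 6 islet markers, a list without Iapp and Gcg, was 0.50 to 0.80 in eGFP and 0.45 to 0.88 in Hoxa9 samples.

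The lower bounds of signalling, protease and lipid genes ran from 1.83-fold to 6.08-fold. Adcy5, an adenylyl cyclase, was at least 2.18-fold higher, Mmp13, a collagenase, at least 2.28-fold, and Atp8b5, a phospholipid flippase, at least 3.30-fold. The other Atp8b5 probes differed by 0.52 and 0.60 and the other Adcy5 probes by 0.46 and 0.21, all with overlapping groups. The adipocyte list had summed signals of 0.08 to 0.34 in eGFP and 0.84 to 1.62 in Hoxa9 samples. Of its 4 markers Fabp4 was higher (difference 3.49, limma adjusted p 0.00354), Adipoq and Lep were not called and Plin1 was well above background on 1 Hoxa9 array, and the part of such cells in the lipid genes was not tested. Tnfrsf14, a receptor of immune cells, was at least 3.01-fold higher, and its other probe was far brighter at 1.57 ± 1.09 (SD, n = 4) in eGFP and 1.51 ± 1.74 in Hoxa9 samples. Axin2, a Wnt pathway inhibitor and target named after its values were seen, differed in the same way. Its probe in the set was at least 4.42-fold higher, while the other, detected on all 8 arrays, had means of -3.20 and -3.24. C2cd4b, a nuclear C2-domain protein, was -8.17, -7.66, -7.79 and -7.68 in eGFP and -2.15, -2.48, -2.03 and -1.41 in Hoxa9 samples, at least 19.9-fold higher. The other C2cd4b probe was detected on all 8 arrays and differed by 2.74. Tprg, a gene named for its regulation by p63, was at least 6.92-fold higher. Ccdc81, Slc25a53 and Gsdmc4 were at least 2.93-fold, 2.41-fold and 2.09-fold higher. The groups overlapped for Gsdmc4, with an eGFP value of -5.12 above a Hoxa9 value of -5.32. The other Slc25a53 probe was detected on 1 array of each group and differed by 0.24, with overlapping groups. At the low end stood Nhsl2, Spag6, a sperm flagellum protein, and Mup19, a major urinary protein. Their bounds were 1.65-fold, 1.52-fold and 1.33-fold, each with overlapping groups, and that of Mup19 is the ratio of its group means.

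Chemosensory receptors made up 7 genes. Olfr691, an odorant receptor, measured -7.56, -7.68, -6.52 and -7.68 in eGFP and -4.13, -4.03, -3.46 and -4.25 in Hoxa9 samples, at least 5.15-fold higher. The other probes of this group had Hoxa9 means from -4.95 to -4.71. Vmn2r5, a vomeronasal receptor named after its values were seen, had 2 probes in the set and another that overlaps one of them by 24 bases, shown in capitals.
Vmn2r5 in the set, chr3:64295233-64295292, minus strand: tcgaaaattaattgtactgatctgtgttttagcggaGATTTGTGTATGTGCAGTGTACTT
Vmn2r5 overlapping, chr3:64295197-64295256, minus strand: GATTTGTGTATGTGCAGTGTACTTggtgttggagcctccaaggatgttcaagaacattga
The first was at -8.14, -7.61, -7.79 and -7.68 in eGFP and -4.92, -4.92, -5.13 and -3.91 in Hoxa9 samples. The overlapping probe was detected on all 8 arrays, at -4.48, -5.05, -4.32 and -3.97 in eGFP and -3.55, -3.61, -3.29 and -2.95 in Hoxa9 samples. In both the Hoxa9 samples were above the eGFP samples, by 3.08 and 1.10, so the flag and not the direction separates these probes. Vmn2r3, its neighbour at 232 kb, had an adjoining probe without shared bases, detected on all 8 arrays, that differed by 1.11 with overlapping groups.

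The Olfr1110 probe shared 20 bases, in capitals, with a probe for Olfr221 on chromosome 14. The part of these shared bases in its signal was not tested.
Olfr1110 in the set, chr2:86975538-86975597, minus strand: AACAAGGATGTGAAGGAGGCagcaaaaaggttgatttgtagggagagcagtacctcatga
Olfr221, chr14:52654855-52654914, minus strand: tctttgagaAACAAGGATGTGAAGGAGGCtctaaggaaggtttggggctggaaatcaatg
The Olfr1110 probe was at least 2.24-fold higher with overlapping groups, and the Olfr221 probe was detected on all 8 arrays and differed by -0.19. Both genes were named after their values were seen. In all, 2 of the 156 probes shared a 20-base stretch with a probe of another gene.

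Among all other probes of these genes, 59 were detected on all 8 arrays. Of those, 46 (78.0%) had a higher Hoxa9 mean and 32 (54.2%) had groups that did not overlap with Hoxa9 higher. Among all 18878 messenger RNA probes detected on all 8 arrays, 45.6% had a higher Hoxa9 mean and 13.6% had such groups. These other probes measured the same samples and genes as the chosen ones, so the shares describe the genes and are no separate support. Over all 113 other probes the range was wide, from -1.49 for Tub to 6.49 for Elapor2. Of the examples that follow, the Nebl and Tshz2 probes were detected on 1 and 3 eGFP arrays and are not among the 59. Nebl, Tshz2, Klhl29, Ctnna2 and Fry had another probe that differed by 5.59, 4.45, 3.85, 3.56 and 3.11, whereas Vipr1 and the bright probe of Lepr differed by -0.60 and 0.04. Klhl29, Ctnna2, Fry, Vipr1 and Lepr were named after their values were seen.

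**Figure D5:**
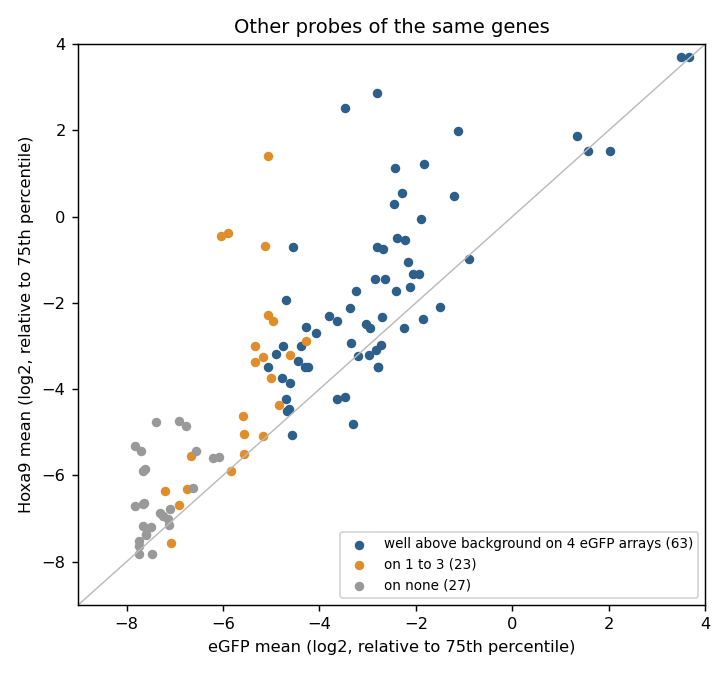
Mean log2 signal in eGFP (horizontal) and Hoxa9 samples (vertical), relative to the array's 75th percentile, of the 113 other probes that carry the names of the described genes. Colours give the number of eGFP arrays with the probe well above background, and the grey line marks equal means. Of the 63 probes detected on all eGFP arrays 47 lie above the line.

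By families read from gene symbols, the described genes were a small share of every family. They were 0.764% of the 20017 genes, 1.82% of the 329 ion channel genes, 1.71% of the 117 peptide hormone genes and 0.515% of the 1749 G protein-coupled receptor genes. The share was 1.19% for immune and blood cell surface genes, 1.16% for extracellular matrix, 0.701% for transcription factors and 0.593% for neuronal and synaptic genes. The 8 genes left out by name, among them the hormone genes Iapp, Gcg and Prl8a2, met the rule but are not counted in these shares. The totals still hold them, so the share of any family they belong to is understated. The symbol patterns are rough, and place Elapor2 among proteases, for example. Over all 27110 genes limma called 7.71% higher and 7.41% lower, and over the messenger RNA genes outside the set 9.76% and 9.0%. For ion channels 25 of 211 others were higher and 14 lower, for transporters 63 of 413 and 22, for growth factors and cytokines 53 of 265 and 31, and for G protein-coupled receptors 25 of 688 and 27.

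A list of 61 close relatives of 23 of the genes, drawn up after their values were seen, held 52 tested genes. Of these 9 were higher, 3 were lower and 40 were not called, with a median difference of 0.07. Besides those given above, Fgf13, a second intracellular FGF homologue, was higher by 2.62 ± 0.33 (SE, limma adjusted p 0.00128), from a mean of -0.70 in eGFP to 1.92 in Hoxa9 samples. Fgf11 and Fgf14 were not called. Serpina3i was higher by 1.99 ± 0.52 (adjusted p 0.0348, 0.00258 to 0.183 over the alternatives). Ttyh3 was lower, from 2.23 to 1.38 (adjusted p 0.00752), and so was Trib3, from 4.15 to 3.24 (adjusted p 0.0403, 0.0129 to 0.104 over the alternatives), while Ttyh2 and Trib1 were not called.

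The genes were scattered over the genome. Chromosome 1 held 14 of them and chromosomes 3, 4 and X held 13 each. As a share of a chromosome's messenger RNA genes, 16 (1.77%) and X (1.66%) had the most. Besides the Aox and vomeronasal pairs, 2 pairs had probes under 500 kb apart. These were Cd200r2 and Ccdc80 on chromosome 16 (212 kb) and Gvin1 and Gm1966 on chromosome 7 (444 kb), of which Cd200r2 and Gm1966 were named after their values were seen. Between Cd200r2 and Ccdc80, Cd200r3 was well above background on 1 array.

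Promoters, from 250 bases before to 50 after a transcription start, were taken from RefSeq on GRCm38.p6 and matched 116 of the genes, with 148 promoters. The CpG observed to expected ratio had a median of 0.525, between that of messenger RNA genes detected on no array (0.202) and of those detected on all 4 eGFP arrays (0.703). It exceeded 0.6 in 38.5% of these promoters, in 13.1% of those of undetected genes and in 60.6% of those of detected ones. The letters TTTATG, an AT-rich Hox-like site, were present on either strand in 11.5%. That share was 11.9% of all 32851 promoters, 9.50% over messenger RNA genes on the array, 18.6% over the undetected and 7.37% over the detected ones. TGATTTA, a Hox and Pbx type site, was in 2.70%, beside 2.97%, 2.42%, 5.37% and 1.87% in the same order. TATAAA was in 12.2%, beside 13.6%, 11.97%, 25.9% and 9.05%. As with CpG, all 3 shares lay between those of detected and undetected genes. A match describes letters and not binding. The promoter of Aox4, one of the 4 with TGATTTA, holds that motif on the reverse strand overlapping TATAAA, both in capitals.
Aox4, GRCm38.p6 chr1:58210147-58210446, plus strand: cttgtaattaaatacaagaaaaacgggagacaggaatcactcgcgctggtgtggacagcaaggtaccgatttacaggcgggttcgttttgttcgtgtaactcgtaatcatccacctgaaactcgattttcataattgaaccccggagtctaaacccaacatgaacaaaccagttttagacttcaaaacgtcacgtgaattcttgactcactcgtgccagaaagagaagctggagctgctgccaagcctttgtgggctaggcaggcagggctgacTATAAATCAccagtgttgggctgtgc
Tspan8 holds TTTATG on the reverse strand, in capitals, and neither of the other motifs.
Tspan8, GRCm38.p6 chr10:115817034-115817333, plus strand: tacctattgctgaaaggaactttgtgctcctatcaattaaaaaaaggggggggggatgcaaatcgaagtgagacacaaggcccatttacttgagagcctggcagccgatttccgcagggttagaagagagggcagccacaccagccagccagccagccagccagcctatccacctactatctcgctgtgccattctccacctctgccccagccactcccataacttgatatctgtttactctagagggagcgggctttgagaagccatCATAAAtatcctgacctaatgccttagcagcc

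The samples differed in how bright the set was. Medians over the 156 probes were -7.08, -6.78, -6.49 and -6.57 in the eGFP samples and -4.72, -4.43, -4.64 and -4.11 in the Hoxa9 samples. Replicate 4 was the highest Hoxa9 sample for 91 probes and the lowest for 11. Its array also had the highest share of spots well above background, 77.5%, and the part of this in its brightness was not tested. Of the 17 probes at least 10-fold higher, replicate 4 was the highest for 12. In the lipid group replicate 2 was the highest for 5 of 8 probes. The SD over the 4 Hoxa9 samples was 0.09 to 1.61, with a median of 0.51, and exceeded 1 for 10 probes.

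Both groups were present on each of the 3 slides, but with few arrays. Slide 1 held eGFP replicates 1 and 2 and Hoxa9 replicate 4. Slide 2 held eGFP replicate 3 and Hoxa9 replicates 1 and 2. Slide 3 held only eGFP replicate 4 and Hoxa9 replicate 3. Same-numbered samples never shared a slide. Values within slides and within experiments are a description, since the flags that chose the probes nearly fix their direction. The median difference was 2.89 on slide 1, 2.18 on slide 2 and 2.14 on slide 3, with 156, 155 and 151 of the 156 probes higher in Hoxa9 samples. Within same-numbered experiments it was 2.62, 2.31, 2.24 and 2.78, with all 156 probes higher in 3 of the pairs and 155 in experiment 3.

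Just outside the rule stood 122 probes detected on all 4 Hoxa9 and 1 eGFP array, with a median difference of 1.37, and 133 probes detected on 3 Hoxa9 and no eGFP arrays, with one of 1.39. The threshold left out some large differences. Orm3, an acute-phase plasma protein gene, was -6.54, -5.71, -6.01 and -5.14 in eGFP and 0.13, -0.18, -0.44 and 0.11 in Hoxa9 samples. The probe with the smallest difference inside the rule, that of Mup19, had -5.56, -5.43, -5.66 and -5.54 in eGFP and -5.17, -5.27, -5.57 and -4.55 in Hoxa9 samples. Among the 19 probes of the opposite pattern, Wdr63 had the largest fall, from between -3.94 and -3.13 in eGFP to between -8.26 and -6.38 in Hoxa9 samples, and Ccne2, a cyclin of the start of replication, lay at -4.57 to -4.01 against -8.13 to -6.06.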

How the data were processed

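The authors deposited scanner files of 8 arrays with intensity values from Agilent Feature Extraction 10.7.3.1, per the file headers, which also give mm9 positions. Controls and outlier spots were dropped, repeat spots were averaged, and the 75th percentile was subtracted from the log2 signal of each array. The deposited table of processed score values, whose decimal points had to be restored, served only as an alternative and matched the log2 scanner signal plus a constant within 0.05 for at least 99.8% of probes.

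Flags of repeat spots were averaged and counted as set from 0.5. The probes, gene lists, roles and relatives were chosen with earlier results of these data known. Named are Hoxa9, the 24 genes with the highest bounds (some not reported here), up to 2 of each symbol family, the 5 with the lowest bounds, and others where said. RIKEN names and unlisted Gm numbers are counted only. Current RefSeq names were found for 153 of the 156 probes, and 8 were updated.

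The fit over 27110 genes used limma 3.58.1 under R 4.3.3, with p-values two-sided, Benjamini-Hochberg adjusted and called under 0.05, 1 probe a gene with the highest mean, well above background on at least 4 arrays. Tested on simulated data of these 27110 genes, it found 17 of 100 changes of 2-fold and 67 of 100 of 4-fold, with 2 false calls. Experiment numbers, from the titles, were taken to pair the samples. The deviations of same-numbered samples had correlations of 0.143, 0.228, 0.129 and 0.186, all over 0.1. Differently numbered samples passed 0.1 too for eGFP replicate 4 with Hoxa9 replicate 3 (0.188) and eGFP replicate 3 with Hoxa9 replicate 4 (0.137). The correlations therefore do not settle the pairing. Apart from ranges over the alternatives, the p-values given come from the fit by group alone. Alternatives were the replicate block, the slide, quantile, median and normexp (offset 50) scaling, other flags, filters and limits, and each array left out.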

Additional observations from a re-analysis of the deposited data

Results flagged for a closer look

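Among the Hoxa9 samples of 49 named genes, 1 gene had a sample far from the others. The count leaves out the eGFP samples. There Aldh1b1 had replicate 3 at -7.13 beside -5.46, -5.21 and -5.50. Serpina3g had eGFP replicate 2 at -6.65 beside -7.82, -7.79 and -7.68. Gbp7, described above, is not among the 49. For Aox3, Hoxa9 replicate 4 was at -0.31 while replicates 1, 2 and 3 were at -1.21, -1.23 and -1.13. The gap was 0.899 of the group's range, over the critical value of 0.829, and chance gives such a gap in about 1 in 20 groups. All 4 values lay far above those of the eGFP samples.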

How the results depend on the processing

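The number of probes taken was 56 with the milder flag (positive and significant) and 519 when at least 3 Hoxa9 arrays and at most 1 eGFP array sufficed. It was 168 to 238 when 1 array was left out, the highest without Hoxa9 replicate 1. The median difference of the 156 probes was 0.39 with normexp background correction, whose offset compresses dim signals, 2.89, 2.18 and 2.14 within slides 1, 2 and 3, and 2.32 to 2.52 when 1 array was left out. With the replicate block it was 2.45, as without it. At least 2-fold higher were 16 probes with normexp, 78 with the 95th percentile limit and 126 to 144 with 1 array left out. Within slide 3 the differences of Nhsl2, Spag6 and Mup19 turned to -0.14, -0.10 and -0.038, and the cause was not tested. Over all genes limma called 4100 (4391 with the replicate block, 3051 with the slide as a block). The number of lower genes, 2010, was 1303 to 1877 with 1 array left out, the lowest without eGFP replicate 2. The replicate block moved no count of calls by over 1.5 times. Of 784 recomputed differences of named genes 661 stayed within the sample spread, and of 720 recomputed calls of relatives 21 were lost and 9 gained. Dim signals near background limit the eGFP side of every fold.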
